A study of Mus musculus with 9 samples.

Results

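E proteins are basic helix-loop-helix transcription factors, and Id proteins are the helix-loop-helix proteins that hold them in check. The 3 E protein genes of the mouse (Tcf3, Tcf4 and Tcf12) and 3 Id genes (Id1, Id2 and Id3) were followed over cultured mouse cells of 3 knockout lines. Every probe set whose accession or description named 1 of the 6 genes was taken, so the 6 genes, of 9915 that could be named, were covered by 20 of the 45101 probe sets on the array: 3 for Tcf3, 8 for Tcf4, 4 for Tcf12, 1 for Id1, 3 for Id2 and 1 for Id3. All 20 passed the filter on low signal. A probe set is a group of short probes that report 1 transcript or a few related ones.

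RNA of each line was measured on 3 Affymetrix expression arrays, 9 in all. The line labelled EBFko lacks EBF and is called lymphoid specified, Pax5ko lacks Pax5 and is called B lineage specified, and RAG2ko lacks RAG2 and is called B lineage committed. EBFko and Pax5ko cells were grown with human Flt3 ligand at 10 ng/ml and mouse IL-7 at 10 ng/ml. RAG2ko cells are recorded with IL-7 at 10 ng/ml and no amount of Flt3 ligand. Medium, as recorded, and genotype therefore cannot be told apart in either comparison with RAG2ko. No group was treated. No wild-type line is among the 3, and the labels give no allele structure, age, sex or clonality and do not tell separate cultures from repeat samples of 1 culture. The p-values therefore measure the spread between these samples, which may be technical.

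E proteins bind the DNA motif called the E box as dimers, with themselves or with tissue-restricted partners. Id proteins have the dimerization domain but no DNA-binding region, so an E protein paired with an Id protein does not bind DNA. In lymphocyte development Tcf3 is needed for entry into the B lineage, Tcf12 acts mainly in thymocytes, and Tcf4 is required for plasmacytoid dendritic cells. Id2 is needed for natural killer and other innate lymphoid cells, Id3 responds to antigen receptor signals, and Id1 is a target of BMP signals in many non-lymphoid cells.

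The sequences upstream of the genes that differed between the lines are shown because the E box is the letter pattern through which this family acts. RefSeq promoter entries (GRCm38.p6) were matched for 4 of the 6 genes, Tcf3, Tcf12, Id2 and Id3. The 250 bases before the annotated start are given 5′ to 3′ on the strand of the gene, with each E box (CANNTG, where N is any base; the pattern reads the same on both strands) in capitals. Id2 lies at chr12:25096093-25096342 (minus strand), Id3 at chr4:136143572-136143821 (plus strand) and Tcf3 at chr10:80433636-80433885 (minus strand).
Id2: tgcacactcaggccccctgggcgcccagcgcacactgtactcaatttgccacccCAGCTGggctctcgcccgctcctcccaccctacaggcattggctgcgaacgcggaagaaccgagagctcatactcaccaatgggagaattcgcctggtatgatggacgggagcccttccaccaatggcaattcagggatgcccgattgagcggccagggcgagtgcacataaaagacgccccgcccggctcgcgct
Id3: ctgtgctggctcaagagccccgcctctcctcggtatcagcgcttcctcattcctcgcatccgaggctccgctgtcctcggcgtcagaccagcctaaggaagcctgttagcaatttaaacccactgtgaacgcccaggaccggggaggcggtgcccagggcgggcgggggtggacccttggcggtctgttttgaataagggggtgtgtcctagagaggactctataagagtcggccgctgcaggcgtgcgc
Tcf3: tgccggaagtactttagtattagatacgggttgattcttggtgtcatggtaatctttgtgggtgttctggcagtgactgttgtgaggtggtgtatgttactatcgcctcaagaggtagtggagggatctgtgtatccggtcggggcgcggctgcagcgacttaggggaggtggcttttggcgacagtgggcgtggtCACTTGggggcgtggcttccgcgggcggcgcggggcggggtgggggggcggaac
The Id2 window held 1 E box, CAGCTG, which began 196 bases before the start. The Tcf3 window held 1, CACTTG, 54 bases before the start, and the Id3 window held 0. An E box occurred in 66.2% of 32851 promoter windows of the same length, and CAGCTG in 13% of them. The letters GCGNGGGCG, known from sites of Egr factors and searched on both strands, were in none of the printed windows and in 4.7% of all windows. These matches describe letters only and were not tested against the levels.

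Arrays of a line resembled one another, with correlations over all tested probe sets of 0.884 to 0.923 within lines and 0.818 to 0.891 between lines. Between 41.0% and 47.3% of probe sets on an array had a signal below 64, or 6 on the log2 scale, here called dim, because no detection calls were used. The probe set for Ebf1 was bright on the arrays labelled EBFko (10.67, 11.10 and 10.85), that for Pax5 lay at 5.62, 2.64 and 3.57 on those labelled Pax5ko, and that for Rag2 at 5.96, 5.60 and 9.10 on those labelled RAG2ko. With alleles and probe positions unknown, these values check no genotype, and the Ebf1 signals and that of Rag2 on RAG2ko replicate 3 go against a plain loss of transcript, so every direction below is one between arrays as labelled. B lineage markers followed the labelled stages: the mean log2 signal of 8 genes was 5.36 to 6.81 in EBFko, 8.85 to 9.26 in Pax5ko and 12.33 to 12.73 in RAG2ko, with 5, 3 and 0 of the 8 dim. Transcripts of stromal cells, a common feeder layer that the labels do not mention, were present in all lines but uneven: the mean of 21 of 22 markers on the array was 9.52, 8.25 and 9.79 on the EBFko arrays, 9.44, 8.22 and 10.01 on the Pax5ko arrays, and 5.55, 6.54 and 9.10 on the RAG2ko arrays. Of these 21 markers, 2, 3 and 7 had a dim line mean in the same order.

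The E protein genes and the Id genes differed in how they varied over the lines. Id2 was lowest in Pax5ko at its brighter probe sets, Id3 was highest in RAG2ko, and Tcf3 was higher in RAG2ko than in EBFko. No probe set of Tcf4 or Tcf12 passed the test in any comparison. Pax5ko against EBFko asked how cells stopped before Pax5 differ from those stopped before EBF. There 2 of the 20 probe sets passed, both of Id2 and both lower, where 5.22% of all 40928 probe sets tested passed and 2.58% were lower. RAG2ko against Pax5ko passed for 4 of 20, 2 of Id2, 1 of Id3 and 1 of Tcf3, all higher, where 9.92% of all probe sets passed, 4.98% higher and 4.94% lower. RAG2ko against EBFko passed for 5 of 20, the 3 of Tcf3 and that of Id3 higher and 1 of Id2 lower, where 12.6% of all passed, 6.41% higher and 6.23% lower. The arrays of the compared lines did not overlap for 7 of the 20 in Pax5ko against EBFko (29% of all probe sets tested), 9 in RAG2ko against Pax5ko (32.6%) and 7 in RAG2ko against EBFko (33.4%), so non-overlap alone set few of them apart from the background. The median log2 difference of the 20 was 0.003, 0.405 and 0.456 in these comparisons, against -0.005, 0.065 and 0.056 over all probe sets tested. Each pair of comparisons shares the arrays of 1 line, so they are not independent of each other. The tests are those of limma, with Benjamini-Hochberg adjustment over all probe sets tested and a call at an adjusted p under 0.05.

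**Figure D1:**
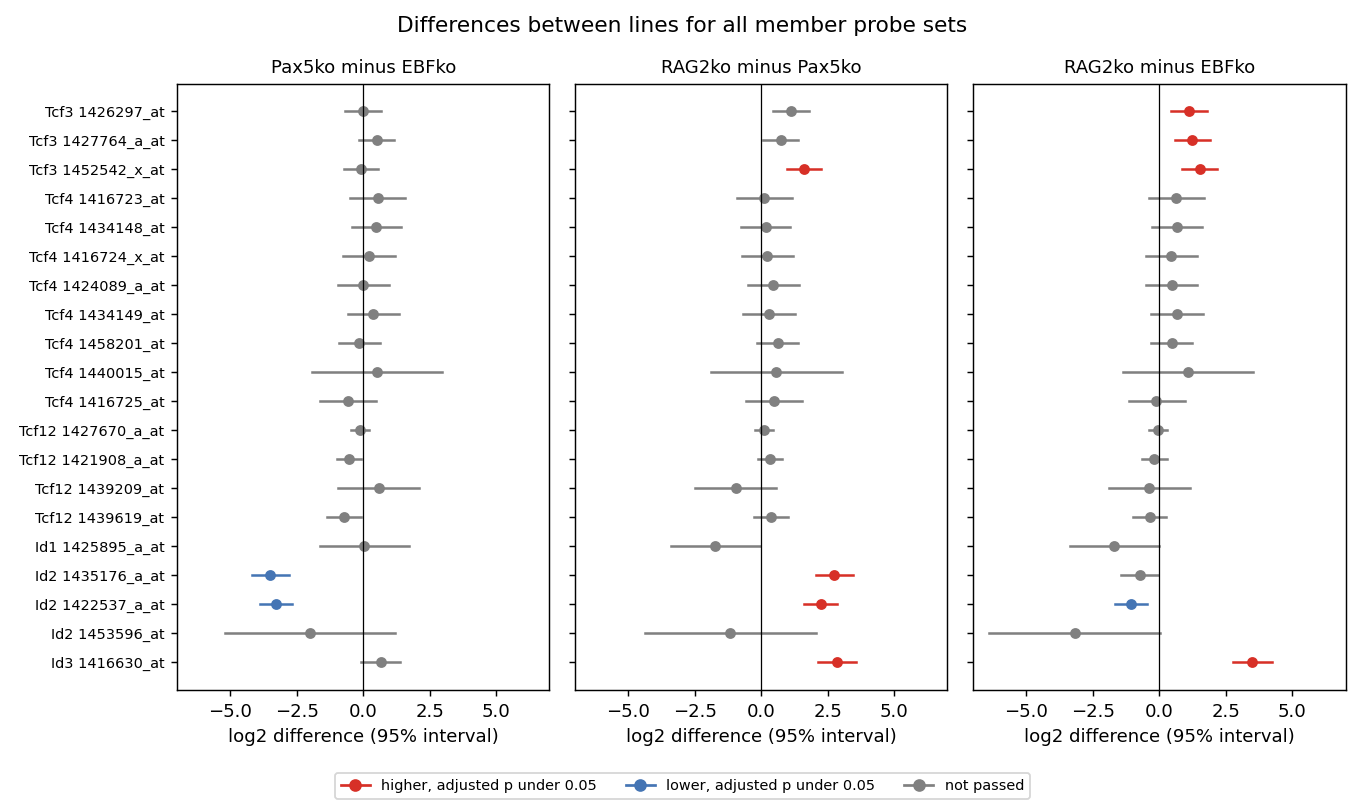
Log2 difference (x axis) of each of the 20 probe sets (rows) in the 3 comparisons, with lines for the 95% interval from the limma fit. Red and blue mark probe sets that passed as higher or lower: the bright Id2 probe sets stand far from 0 in both comparisons with Pax5ko and Id3 in both with RAG2ko, and every Tcf4 and Tcf12 interval is grey.

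Id2, the Id gene needed for innate lymphoid cells, separated Pax5ko from both other lines at its brighter probe sets. Its brightest probe set had log2 signals of 11.76, 11.85 and 11.06 in EBFko, 8.33, 7.50 and 8.35 in Pax5ko, and 10.87, 10.78 and 10.79 in RAG2ko. All 3 Pax5ko arrays lay far below the other 6, and RAG2ko lay between the other lines without overlap. Pax5ko was lower than EBFko by 3.49 ± 0.30 on the log2 scale (SE; 95% interval -4.20 to -2.79; limma adjusted p = 0.0012), an 11.26-fold difference. RAG2ko was 2.75 ± 0.30 higher than Pax5ko (interval 2.04 to 3.45, limma adjusted p = 0.002), or 6.72-fold. RAG2ko and EBFko were next to each other in order, at 10.81 ± 0.05 and 11.55 ± 0.43 (SD, n = 3), and their difference of -0.74 ± 0.30 (interval -1.45 to -0.04) did not pass (limma adjusted p = 0.163). In bulk RNA, fewer cells with a transcript and less of it per cell cannot be told apart.

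The second Id2 probe set (1422537_a_at) gave the same order. It read 9.90, 10.59 and 9.77 in EBFko, 6.78, 6.49 and 7.13 in Pax5ko, and 9.05, 8.99 and 9.03 in RAG2ko, so the 3 lines were apart. Its differences were -3.29 ± 0.26 for Pax5ko minus EBFko (limma adjusted p = 8.99e-04) and 2.23 ± 0.26 for RAG2ko minus Pax5ko (limma adjusted p = 0.00268). Here RAG2ko minus EBFko, at -1.06 ± 0.26, passed as well (limma adjusted p = 0.039), but it passed in only 10 of 20 alternative analyses and was lost without any 1 of the 3 RAG2ko arrays, EBFko replicate 1 or 2, or Pax5ko replicate 1 (limma adjusted p from 0.0689 to 0.107). The third probe set (1453596_at) read 7.42, 7.13 and 6.59 in EBFko, was dim on all Pax5ko arrays and read 0.26, 6.28 and 5.06 in RAG2ko. Unlike the other Id2 sets it had its lowest mean in RAG2ko, at 3.87 against 5.05 in Pax5ko, which rests on the reading of 0.26 on RAG2ko replicate 1. Its RAG2ko minus Pax5ko difference was -1.18 ± 1.37, and it passed in no comparison. In the authors' deposited table of ratios to an unstated reference, the brightest Id2 set stood at 1.907 for EBFko, 0.121 for Pax5ko and 0.997 for RAG2ko. There 1453596_at stood at 2.682, 0.869 and 1.107, so Pax5ko, not RAG2ko, was lowest.

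Id3, the Id gene that responds to antigen receptor signals, had its high level in RAG2ko. Its log2 signals were 7.26, 6.58 and 7.54 in EBFko, 7.64, 7.44 and 8.24 in Pax5ko, and 10.55, 10.49 and 10.83 in RAG2ko. The RAG2ko arrays lay above all 6 others, and the other lines overlapped. RAG2ko exceeded Pax5ko by 2.85 ± 0.31 (interval 2.13 to 3.58, limma adjusted p = 0.00193, 7.23-fold) and EBFko by 3.50 ± 0.31 (interval 2.78 to 4.22, limma adjusted p = 6.08e-04, 11.31-fold). Pax5ko minus EBFko was 0.65 ± 0.31 (interval -0.08 to 1.37) and did not pass (limma adjusted p = 0.336). Within lines Id3 followed the stromal score with r = 0.70 over the 9 arrays. The score was lower on 2 of the 3 RAG2ko arrays than on every other array. With the score in the fit the differences from Pax5ko and EBFko were 3.32 and 3.95 (limma adjusted p = 0.00535 and 0.00217). The authors' deposited table gave Id3 ratios of 0.483, 0.913 and 9.846 for EBFko, Pax5ko and RAG2ko.

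**Figure D2:**
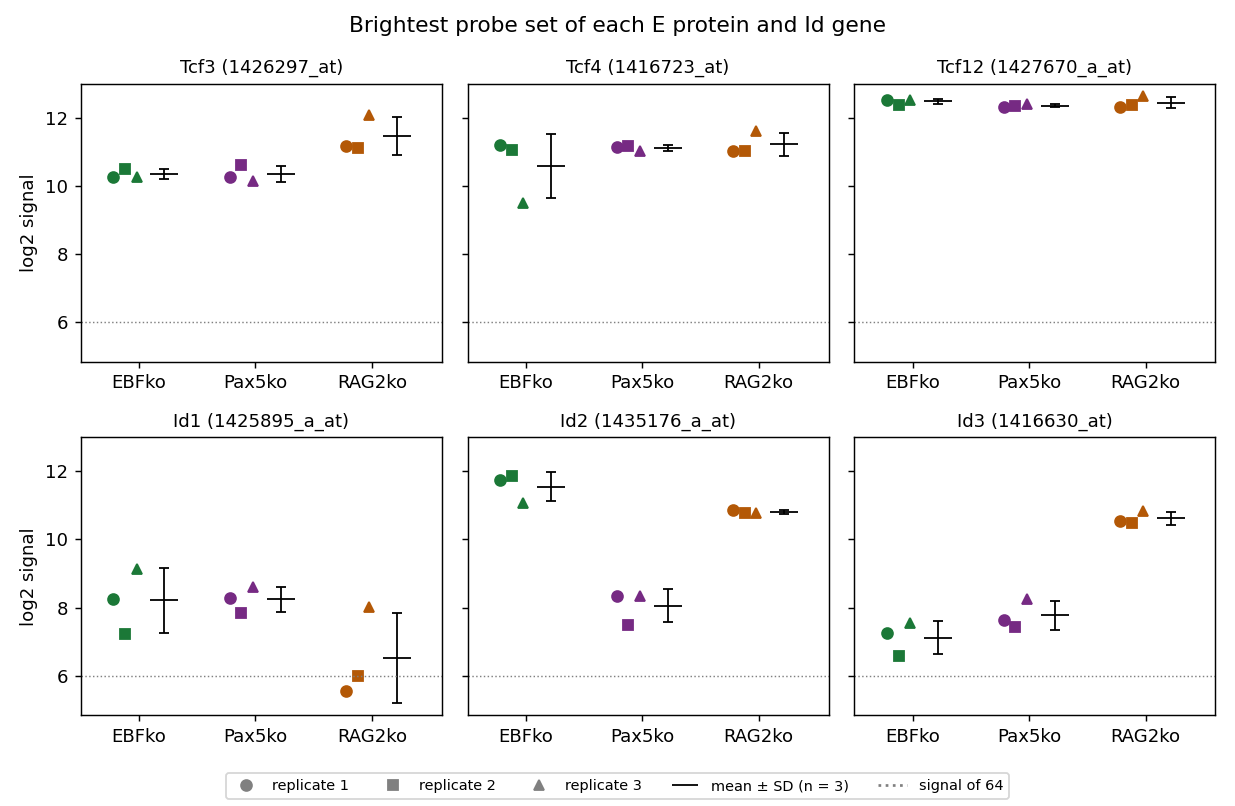
Log2 signal (y axis) of the brightest probe set of each gene on the 9 arrays, with the mean ± SD of 3 arrays beside each line and a dotted line at a signal of 64. Id2 dips in Pax5ko to between 7.50 and 8.35, Id3 stands at 10.49 to 10.83 in RAG2ko alone, and Tcf12 keeps within 12.31 and 12.63 on all arrays.

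Id1, the third Id gene, differed more among arrays of a line than between EBFko and Pax5ko. Log2 signals were 8.26, 7.24 and 9.13 in EBFko, 8.27, 7.85 and 8.61 in Pax5ko, and 5.56, 5.98 and 8.02 in RAG2ko. RAG2ko replicates 1 and 2 were dim, and replicate 3 lay within the range of the other lines. The differences were 0.03 ± 0.72 for Pax5ko minus EBFko (interval -1.64 to 1.71), -1.73 ± 0.72 for RAG2ko minus Pax5ko (-3.40 to -0.05) and -1.69 ± 0.72 for RAG2ko minus EBFko (-3.37 to -0.02). None passed (limma adjusted p = 0.989, 0.185 and 0.18). Without RAG2ko replicate 3, both comparisons with RAG2ko passed, at -2.47 (limma adjusted p = 0.0394) and -2.44 (limma adjusted p = 0.0341).

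The stromal score moved with Id1. Within lines the correlation of Id1 with the score was 0.95 over the 9 arrays, given as a description; the source of the stromal transcripts is not known. With the score as a covariate, RAG2ko minus Pax5ko was -0.18 ± 0.36 (limma adjusted p = 0.82) and RAG2ko minus EBFko -0.18 ± 0.35 (limma adjusted p = 0.825). The gene most like Id1 over the 9 arrays was Dcn (r = 0.994), which encodes the matrix protein decorin and is itself 1 of the stromal markers. Dcn read 7.83 and 8.52 on RAG2ko replicates 1 and 2 and 12.14 on replicate 3, and lay between 10.47 and 13.27 on the other 6 arrays. For Id2, by contrast in size, the within-line correlation with the score was 0.08. In the fit with the score its brightest probe set differed by -3.49 for Pax5ko minus EBFko (limma adjusted p = 0.00353) and by 2.80 for RAG2ko minus Pax5ko (limma adjusted p = 0.0178).

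**Figure D3:**
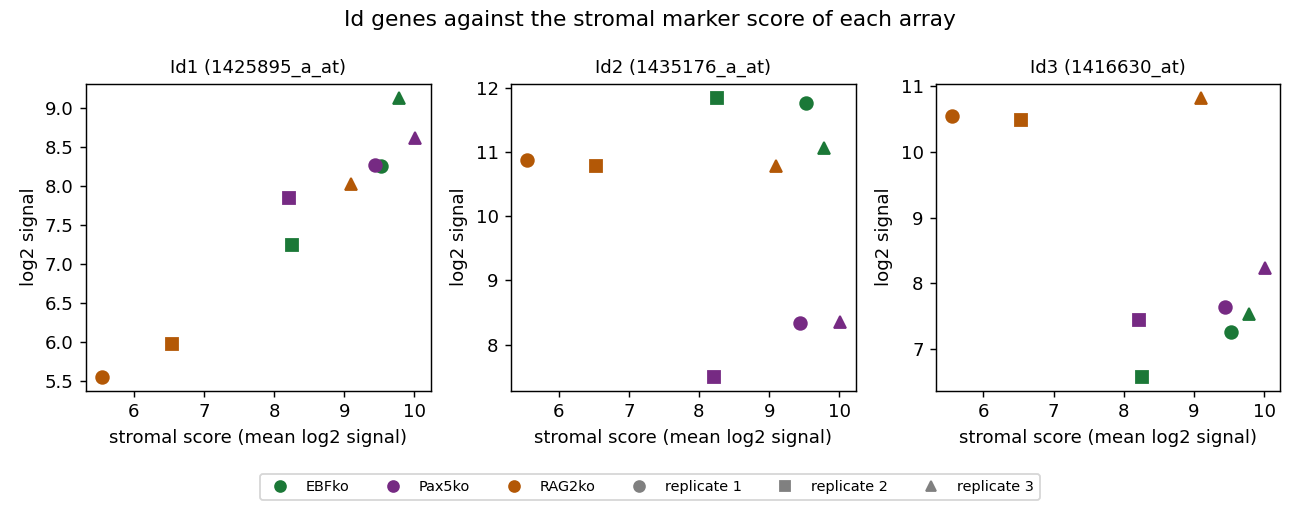
Log2 signal of Id1, Id2 and Id3 (y axes, each with its own range) against the mean log2 signal of 21 stromal markers (x axis), 1 point per array, with colours for lines and shapes for replicates. Id1 is higher on arrays with a higher score, from 5.56 at a score of 5.55 to 9.13 at 9.79, while Id2 is split by line with Pax5ko below and Id3 with RAG2ko above.

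Tcf3, the E protein gene needed for entry into the B lineage, was higher in RAG2ko by a smaller step. Its brightest probe set (1426297_at) had log2 signals of 10.27, 10.51 and 10.27 in EBFko, 10.27, 10.61 and 10.15 in Pax5ko, and 11.18, 11.11 and 12.09 in RAG2ko. The RAG2ko arrays lay above all others, with replicate 3 the highest, and EBFko and Pax5ko overlapped. RAG2ko minus EBFko was 1.11 ± 0.29 (interval 0.44 to 1.79, limma adjusted p = 0.0456, 2.16-fold), and RAG2ko minus Pax5ko, at 1.12 ± 0.29 (interval 0.45 to 1.79), fell just outside the threshold (limma adjusted p = 0.0522). Pax5ko minus EBFko was -0.01 ± 0.29 (interval -0.68 to 0.67, limma adjusted p = 0.994).

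The other Tcf3 probe sets kept RAG2ko highest. The set 1427764_a_at read 9.56, 9.57 and 9.60 in EBFko, 10.28, 10.10 and 9.88 in Pax5ko, and 10.44, 10.54 and 11.47 in RAG2ko, which put the 3 lines in an order without overlap. Its difference was 1.24 ± 0.28 for RAG2ko minus EBFko (limma adjusted p = 0.0293), while 0.73 ± 0.28 for RAG2ko minus Pax5ko and 0.51 ± 0.28 for Pax5ko minus EBFko did not pass (limma adjusted p = 0.16 and 0.414). The set 1452542_x_at, whose name marks probes that may match other transcripts, read 6.90, 7.04 and 7.61, then 6.97, 6.90 and 7.42, then 8.57, 8.42 and 9.09 in the same order of lines. It passed in both comparisons with RAG2ko, at 1.60 ± 0.28 against Pax5ko (limma adjusted p = 0.0126) and 1.51 ± 0.28 against EBFko (limma adjusted p = 0.013). The Tcf3 calls lie near the threshold: that of 1426297_at in RAG2ko minus EBFko was lost on leaving out any 1 array other than RAG2ko replicate 3 (limma adjusted p from 0.0562 to 0.127). That of 1427764_a_at was lost without any 1 of the EBFko arrays or RAG2ko replicate 2, and those of 1452542_x_at without EBFko replicate 1 or 2 in RAG2ko minus EBFko and without Pax5ko replicate 1 in RAG2ko minus Pax5ko. The authors' deposited table gave Tcf3 ratios of 1.944, 2.208 and 2.348 for RAG2ko at the 3 probe sets, and of 0.884 to 0.94 for the other lines.

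Tcf12, the E protein gene used mainly by thymocytes, had the narrowest range of the 6 over the arrays, by brightest probe set. Its brightest probe set had log2 signals of 12.52, 12.38 and 12.53 in EBFko, 12.31, 12.34 and 12.39 in Pax5ko, and 12.32, 12.36 and 12.63 in RAG2ko. Pax5ko minus EBFko was -0.13 ± 0.15 (interval -0.47 to 0.21), RAG2ko minus Pax5ko 0.09 ± 0.15 (-0.25 to 0.43) and RAG2ko minus EBFko -0.04 ± 0.15 (-0.38 to 0.30), and none passed (limma adjusted p = 0.725, 0.749 and 0.893). A second probe set, 1421908_a_at, was lower in Pax5ko (11.18, 10.89 and 11.23) than in EBFko (11.67, 11.49 and 11.72) without overlap, but its difference of -0.52 ± 0.19 did not pass (limma adjusted p = 0.21). The probe set 1439619_at behaved alike, at -0.72 ± 0.27 (limma adjusted p = 0.207), and 1439209_at was low on EBFko replicate 3 (6.38) and RAG2ko replicate 3 (6.54). The within-line correlation of the brightest set with the stromal score was 0.92, and with the score in the fit the RAG2ko minus EBFko difference was 0.12.

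Tcf4, the E protein gene of plasmacytoid dendritic cells, was bright at 5 of its 8 probe sets, and none of the 8 passed the test. The brightest (1416723_at) read 11.20, 11.05 and 9.49 in EBFko, 11.15, 11.17 and 11.02 in Pax5ko, and 11.02, 11.03 and 11.62 in RAG2ko. EBFko replicate 3 stood alone below the other 8 arrays. The differences were 0.54 ± 0.44 (interval -0.50 to 1.58) for Pax5ko minus EBFko, 0.11 ± 0.44 (-0.93 to 1.15) for RAG2ko minus Pax5ko and 0.64 ± 0.44 (-0.40 to 1.68) for RAG2ko minus EBFko, none of which passed (limma adjusted p = 0.614, 0.909 and 0.409). Over the 8 probe sets the differences ran from -0.57 to 0.54, from 0.11 to 0.61 and from -0.11 to 1.08. The arrays did not overlap for 1424089_a_at in RAG2ko against Pax5ko (0.45 ± 0.41, limma adjusted p = 0.546) and for the dim 1416725_at in Pax5ko against EBFko (-0.57 ± 0.45, limma adjusted p = 0.592). These intervals leave room for differences of more than 2-fold in some comparisons.

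Of the 8 Tcf4 probe sets, 6 shared the gap on EBFko replicate 3, being lower there by more than 1. The sets 1458201_at and 1416725_at differed by only -0.72 and -0.13 from the mean of EBFko replicates 1 and 2. Against the mean of EBFko replicates 1 and 2, the 5 bright sets differed by -1.39 to -1.63 on that array, and the dimmer 1440015_at read 2.62 there against 6.66 and 6.77. Of 10111 probe sets with a mean log2 signal of at least 9, the 5 bright Tcf4 sets among them, 78 (0.771%) were lower by more than 1 on EBFko replicate 3. Without that array the brightest set differed by -0.01 for Pax5ko minus EBFko and 0.10 for RAG2ko minus EBFko. The lower level of its EBFko mean (10.58 ± 0.94, SD, n = 3) thus rests on 1 sample. The authors' deposited table listed the brightest set at 0.685 for EBFko, 0.992 for Pax5ko and 1.141 for RAG2ko. The 3 dimmer sets were higher in EBFko than in Pax5ko in the authors' deposited table, such as 1458201_at at 1.161 against 0.908.

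**Figure D4:**
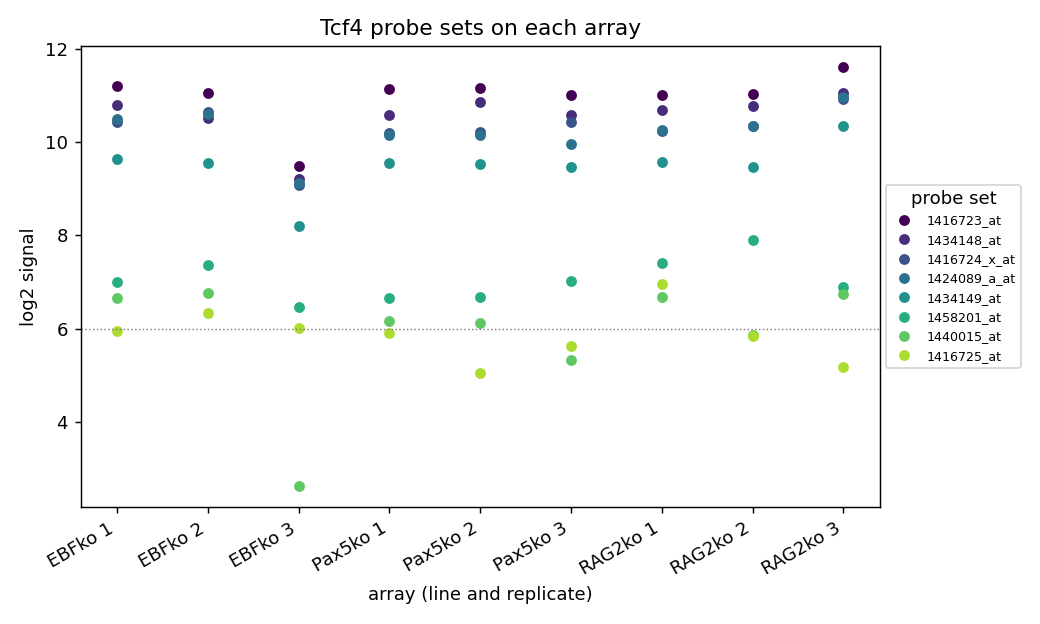
Log2 signal (y axis) of the 8 Tcf4 probe sets, 1 colour each, on the 9 arrays (x axis), with a dotted line at a signal of 64. The 5 upper sets drop together on EBFko replicate 3, where the brightest reads 9.49. On RAG2ko replicate 3 they read 0.34 to 0.81 above the mean of RAG2ko replicates 1 and 2.

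By Pearson correlation of log2 signal over the 9 arrays, among 6382 named genes with a mean of at least 6, the genes most like each member were as follows, given as a description of shared pattern. Id3 was followed by Akap12 (0.995), Gch1 (0.991) and Plxna2 (0.990), which encode a kinase anchor protein, an enzyme of tetrahydrobiopterin synthesis and a semaphorin receptor. Akap12 read 12.46, 12.55 and 13.10 in RAG2ko and 8.34 to 9.82 elsewhere. Id2 was followed by Casd1 (0.987), Ppt1 (0.977) and Decr1 (0.970), the last an enzyme of fatty acid oxidation that read 8.31, 6.97 and 8.20 in Pax5ko against 9.55 to 10.56 in the other lines. Tcf3 was followed by Bcl7a (0.972), Fbxo5 (0.966) and Smc2 (0.965), the latter pair being genes of cell division. Like Tcf3, each was highest on RAG2ko replicate 3, where Bcl7a read 11.47 and Fbxo5 12.28. Id1 was followed, after Dcn, by Il18 (0.993) and Sema3c (0.992). Tcf4 had Cd1d1 (0.925), Sgk2 (0.923) and Srp54a (0.920), each lowest on EBFko replicate 3. Tcf12 had Pef1 (0.940), Wbp2 (0.936) and Tpra1 (0.929).

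The known E protein targets of lymphoid cells were mostly higher where they passed the test. Of 20 tested, 9 were higher and 1 lower in Pax5ko than in EBFko, where 3.51% of 9332 named genes were higher and 3.65% lower. In RAG2ko minus Pax5ko, 7 were higher and 2 lower (6.73% and 6.3% of all), and in RAG2ko minus EBFko 11 and 3 (8.32% and 8.09%). The list's median differences were 1.10, 0.76 and 1.12, against -0.022, 0.072 and 0.056 over all named genes. The list holds many B lineage genes, which also mark the labelled stages, and it was chosen with earlier results of these data known, so its direction is not independent evidence. Without RAG2ko replicate 3 the counts were 9 and 4, 6 and 3, and 11 and 3.

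Among these targets the largest rises in Pax5ko over EBFko were Vpreb1 (10.43 ± 0.89, limma adjusted p = 0.00114), part of the surrogate light chain, and Pou2af1 (8.97 ± 0.33, limma adjusted p = 3.44e-05), a B cell coactivator. Both were dim in EBFko, so the sizes rest on dim signal. Ptcra, the pre-T cell receptor chain, dim in Pax5ko, fell by 2.42 ± 0.31 in the same comparison (limma adjusted p = 0.00644). RAG2ko exceeded Pax5ko in Cd79a (3.86 ± 0.27), which encodes a chain that signals for the antigen receptor. The falls were in Ccr9, a chemokine receptor (-7.23 ± 0.74), and Notch1, the receptor that directs cells to the T lineage (-2.95 ± 0.25). Against EBFko, RAG2ko was higher in Vpreb1 (10.84 ± 0.89) and lower in Ccr9 (-9.93 ± 0.74) and Notch1 (-1.73 ± 0.25). Ccr9 was dim in RAG2ko (mean 4.34), so its sizes rest on dim signal too.

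**Figure D5:**
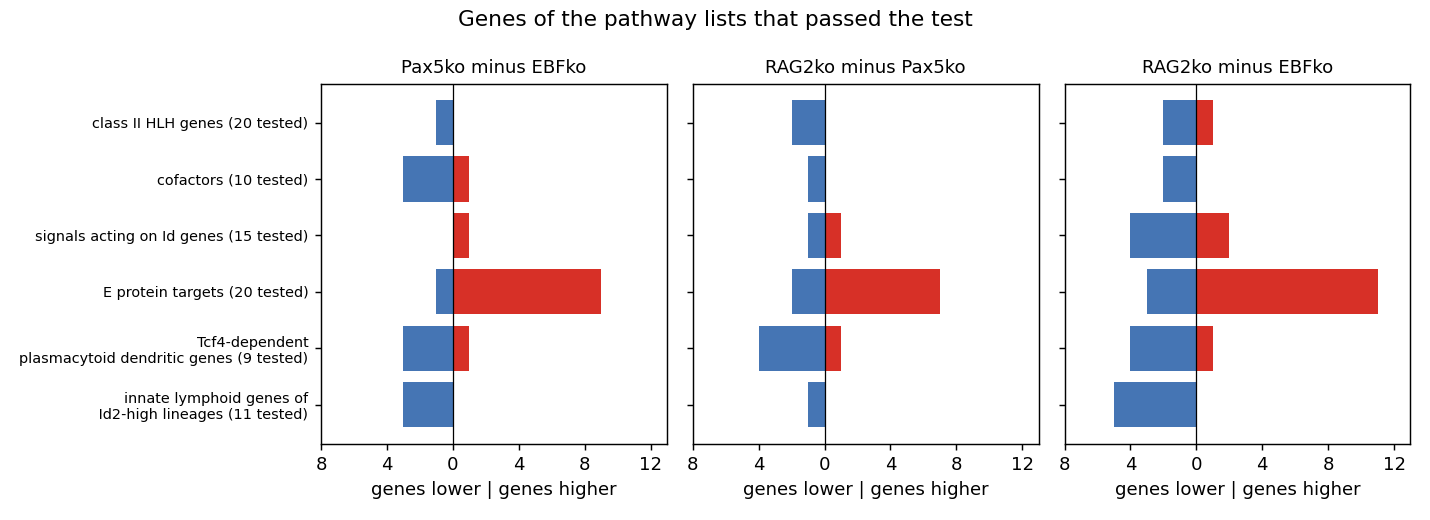
Number of genes of 6 pathway lists that passed the test as lower (blue, left of 0) or higher (red, right of 0) in each comparison (x axis: genes; rows: lists with the number tested). The E protein targets have the longest red bars, at 9, 7 and 11 genes, and the innate lymphoid list has blue bars only.

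The partners of E proteins were called about as often as other named genes. Of 20 genes on the class II helix-loop-helix list, 0 were higher and 1 lower in Pax5ko minus EBFko. The counts were 0 and 2 in RAG2ko minus Pax5ko, and 1 and 2 in RAG2ko minus EBFko. The medians were 0.27, 0.58 and 0.57 in the same order. The list includes Id4, an Id gene rather than a partner, which passed in no comparison. Over all named genes 3.51% were higher and 3.65% lower in the first comparison, 6.73% and 6.3% in the second, and 8.32% and 8.09% in the third. Tal1, a partner known from blood stem and erythroid cells, was 2.08 ± 0.37 higher in RAG2ko than in EBFko (limma adjusted p = 0.0119), and Bhlha15, a factor of secretory cells, was lower in RAG2ko, at -1.95 ± 0.18 against Pax5ko and -1.48 ± 0.18 against EBFko, with a dim mean in RAG2ko. Ascl2, Twist1 and Tal2 also passed as lower, at mean levels that were all dim. Of 10 cofactors tested, 1 was higher and 3 lower in Pax5ko than in EBFko, 1 was lower in RAG2ko minus Pax5ko and 2 in RAG2ko minus EBFko (medians -0.17, -0.26 and -0.46). The 3 lower cofactors of the first comparison stand against 3.65% of named genes lower, and the counts of 1 and 2 with RAG2ko stand beside shares of 6.3% and 8.09%. Lmo2, an adaptor of helix-loop-helix complexes, was highest in Pax5ko, 1.15 ± 0.22 above EBFko, and fell by 1.57 ± 0.22 in RAG2ko minus Pax5ko (limma adjusted p = 0.00558). Cbfa2t3, a corepressor bound by E proteins, differed from EBFko by -1.15 ± 0.15 in Pax5ko and -1.39 ± 0.15 in RAG2ko, and the adaptor Lmo1, dim in both of these lines, by -1.94 ± 0.33 and -2.23 ± 0.33.

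Of 15 genes of the signals known to act on Id genes (Egr factors, BMP and TGF-beta receptors and Smads), 1 was higher and 0 lower in Pax5ko minus EBFko, 1 and 1 in RAG2ko minus Pax5ko, and 2 and 4 in RAG2ko minus EBFko. Their medians were -0.38, -0.41 and -0.09. The counts in the comparisons with Pax5ko lie near the shares of all named genes (3.51% higher and 3.65% lower, then 6.73% and 6.3%), and those of the last stand beside 8.32% and 8.09%. The BMP receptor gene Bmpr1a was higher than in EBFko by 3.68 ± 0.60 in Pax5ko (limma adjusted p = 0.0153) and 3.02 ± 0.60 in RAG2ko (limma adjusted p = 0.0175). The activin receptor gene Acvr1b was lower in RAG2ko, at -2.48 ± 0.23 against Pax5ko and -2.85 ± 0.23 against EBFko, and Tgfbr1 fell by 1.52 ± 0.20 in RAG2ko minus EBFko. Acvr1 was 1.95 ± 0.47 higher in RAG2ko than in Pax5ko (limma adjusted p = 0.0438) and 2.17 ± 0.47 higher than in EBFko (limma adjusted p = 0.0254). Both Acvr1 calls were lost without RAG2ko replicate 3 (limma adjusted p = 0.078 and 0.0505), which left 0 higher and 2 lower in RAG2ko minus Pax5ko and 1 and 4 in RAG2ko minus EBFko.

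Genes tied to high Id2 or to Tcf4 in other lineages were set beside those members. Of 11 innate lymphoid genes, 3 were lower in Pax5ko than in EBFko, 1 in RAG2ko than in Pax5ko and 5 in RAG2ko than in EBFko, and 0 were higher (medians -0.40, -0.57 and -1.73). Of all named genes 3.65%, 6.3% and 8.09% were lower in these comparisons, so the single gene of the second lies near the background. Klrd1, a natural killer receptor chain, was -8.59 ± 1.25 and Il18r1, an interleukin receptor, -7.84 ± 1.37 in Pax5ko minus EBFko (limma adjusted p = 0.0102 and 0.02), from bright levels in EBFko to dim ones. Il18r1 was also lower in RAG2ko than in EBFko (-8.67 ± 1.37), and Nfil3, a factor of innate lymphoid development, was lower in RAG2ko than in Pax5ko (-6.77 ± 1.07) and EBFko (-5.44 ± 1.07), sizes that rest on a dim mean of 2.28 in RAG2ko. Klrd1 is also a marker of natural killer cells. The mean of 8 such markers was 5.08 to 5.77, 3.92 to 5.13 and 4.76 to 5.50 in EBFko, Pax5ko and RAG2ko, with 5, 6 and 6 of the 8 dim; their part in these differences was not tested. Without RAG2ko replicate 3 the innate lymphoid counts in Pax5ko minus EBFko were 1 higher and 4 lower.

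Of 9 plasmacytoid dendritic genes known to depend on Tcf4, 1 was higher and 3 lower in Pax5ko minus EBFko, and 1 was higher and 4 lower in each comparison with RAG2ko (medians -0.01, -0.72 and -0.78). The shares of all named genes that were lower were 3.65%, 6.3% and 8.09%, and 3.51%, 6.73% and 8.32% were higher. Bcl11a, a lymphoid transcription factor, was higher than in EBFko by 2.04 ± 0.30 in Pax5ko and 2.22 ± 0.30 in RAG2ko. Cox6a2, a subunit of cytochrome oxidase, fell by 3.92 ± 0.28 and 5.14 ± 0.28 in the same comparisons. Runx2, known to guide dendritic cells out of the marrow, fell by 4.70 ± 0.18 in RAG2ko minus Pax5ko (limma adjusted p = 3.55e-05) and by 5.78 ± 0.18 in RAG2ko minus EBFko (limma adjusted p = 1.60e-05), and Tlr7, a sensor of RNA, by 5.13 ± 0.83 in RAG2ko minus Pax5ko. Both were dim in RAG2ko (means 5.19 and 3.83), so these sizes are uncertain. Irf8 was lowest in Pax5ko, at -1.65 ± 0.24 against EBFko and with RAG2ko 1.99 ± 0.24 above it. Counts without RAG2ko replicate 3 were 1 and 3, 1 and 3, and 1 and 4.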

How the data were processed

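RNA of 9 samples, 3 per line, was hybridised to 9 arrays. The authors deposited 1 signal intensity per probe set and array; the submitters' processing notes name GCRMA, but the deposited intensity values were linear, with a mean of 500.003 or 500.004 on every array after trimming both ends. The deposited tables of each line hold 1 ratio per probe set, to a reference not stated, and served as an alternative.

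Intensities were log2 transformed and quantile normalized, without 64 control probe sets. A probe set was kept if 3 or more arrays read above 4 on the log2 scale, which left 40928. The 3 comparisons were fitted on all 9 arrays with limma 3.58.1 (R 4.3.3; lmFit, eBayes), two-sided, with Benjamini-Hochberg adjustment. Of the probe sets, 18232 had a name, from accession or description. Probe sets described only as transcription factor 3 belong to Tcf7l1 and were left out. A gene was represented by its brightest probe set. List genes were named by rule: up to 2 rises and 2 falls of largest size per list and comparison, without overlap; Ascl2, Twist1, Tal2 and Acvr1 fell under it, and 1 gene it named is not reported here. The number of arrays limits precision.

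Members and lists were chosen with earlier results of these data known. Alternatives covered normalization, filters, probe set choice, eBayes settings, array weights, the replicate number, the arrays fitted, the stromal score as a covariate, the authors' ratios, and omission of single arrays.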

Additional observations from a re-analysis of the deposited data

How the results depend on the processing

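The calls of Id3 in both comparisons with RAG2ko passed in 22 of 22 alternatives with a test, with differences, those of the deposited ratios included, of 2.69 to 3.43 against Pax5ko and 3.23 to 4.35 against EBFko. The brightest Id2 probe set passed in 22 of 22 in Pax5ko minus EBFko (-3.98 to -2.93) and 21 of 22 in RAG2ko minus Pax5ko (1.27 to 3.04); it was lost where probe sets of a gene, dim ones included, were averaged (limma adjusted p = 0.129). No tested difference that passed changed sign. In RAG2ko minus EBFko, where 5 probe sets and 2 genes by their brightest set passed, the probe set count was 2 with the replicate block, 2 with only the 6 arrays compared and 3 with the stromal covariate, and the gene count was 1 under each of these and with no filter. Leaving out 1 array gave 1 to 5 probe sets, the lowest without EBFko replicate 1 or 2, and 1 to 3 genes there. In RAG2ko minus Pax5ko the gene count rose from 2 to 4 with array weights, which added Tcf3 and Id1, and leaving out 1 array gave 2 to 4 genes, the highest without RAG2ko replicate 3. Same-numbered arrays of different lines deviated together with correlations of -0.006 to 0.114, and arrays of different lines and numbers with -0.119 to 0.071. The labels do not say whether a number stands for a shared batch, and these correlations cannot decide it. The replicate block took the calls of 2 Tcf3 probe sets and 1 of Id2 in RAG2ko minus EBFko. The cause of these shifts was not tested. Dim signals, such as those of the Id2 probe set 1453596_at, have no reliable size: its RAG2ko minus EBFko difference was -3.18, and -0.95 with signals below 64 raised to 64.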
